A study of Mus musculus with 3 samples.

Results

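The 8 genes that encode the constant parts of the mouse immunoglobulin heavy chains (Ighm, Ighd, Ighg3, Ighg1, Ighg2b, Ighg2c, Ighe and Igha), together with Jchain, were followed through lung leukocytes by single-cell RNA-Seq. They are 9 of the 32285 genes in the count tables and were matched by symbol, and each symbol stood in the tables once. Their transcripts were counted as unique molecular identifiers (UMIs, tags that mark single captured RNA molecules) in B cells, defined as cells with at least 2 UMIs of Cd79a, Cd79b and Ms4a1 together and no Cd3e UMI. Of the 2921, 10328 and 9016 cells in the 3 libraries, 2422, 10283 and 8324 passed the cell filters, and 528, 1013 and 2114 of those were B cells. T cells (at least 2 Cd3d, Cd3e and Cd3g UMIs and none of the 3 B cell genes) served as the check on free RNA. Whether T cells make any of these transcripts themselves was not tested.

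The libraries came from left lungs of C57BL/6J mice. The naive library was from lungs that had not been transplanted. The other libraries came from lungs of CD45.2 donors placed into CD45.1 recipients, which carry a different allele of the leukocyte antigen CD45, after 60 minutes of storage at 4 °C and 45 minutes at 28 °C. These grafts were taken 2 hours or 3 days after reperfusion. Cells of 2 mice were pooled for each library and sorted for CD45.1, so the transplant cells derive from the recipient. The methods give this sort for naive lungs too, where there is no recipient. With 1 library per condition there is no replicate error and no test across mice, and every interval given is a 95% interval that covers counting error only. A difference between libraries cannot be told apart from a difference in mice, in preparation or, against the naive library, in counting software.

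A heavy chain is built from a rearranged variable region joined to one of several constant regions, and the constant region sets the antibody class. Mature naive B cells transcribe Ighm and Ighd as one primary RNA, which is spliced to give IgM and IgD on the same cell. Class switch recombination deletes Ighm, Ighd and any other constant gene that lies before the chosen one, after which the cell makes IgG, IgE or IgA. Plasma cells secrete antibody in bulk, and Jchain encodes the joining chain that links IgM into pentamers and IgA into dimers for transport across mucosal surfaces such as the airway.

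In GENCODE vM21 (GRCm38), the constant genes lie on the minus strand of chromosome 12 in the order of switching. Ighm spans chr12:113418558-113422730 and is followed by Ighd at chr12:113406604-113416324, Ighg3 at chr12:113356224-113361232 and Ighg1 at chr12:113325240-113330523. Ighg2b lies at chr12:113302965-113307933, Ighg2c at chr12:113285325-113288932, Ighe at chr12:113269260-113273248 and Igha at chr12:113254830-113260236. Jchain lies apart, on the minus strand of chromosome 5 at chr5:88519809-88527891. The last 60 coding bases of the secreted forms are shown because they set apart the classes that pair with the joining chain. Each stretch lies in the last exon of its secreted transcript, on GRCm38 as annotated by GENCODE, and ends just before the stop codon. Capitals mark a cysteine codon that stands 2 codons from the end.
Ighm, exon 4, chr12:113420870-113420929: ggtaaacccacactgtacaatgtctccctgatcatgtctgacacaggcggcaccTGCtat
Igha, exon 3, chr12:113258771-113258830: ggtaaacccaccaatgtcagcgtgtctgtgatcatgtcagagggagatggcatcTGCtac
Ighg3, exon 4, chr12:113359668-113359727: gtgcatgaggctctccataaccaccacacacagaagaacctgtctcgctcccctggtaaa
Ighg1, exon 4, chr12:113328979-113329038: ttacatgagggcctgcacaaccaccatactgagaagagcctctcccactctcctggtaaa
Ighg2b, exon 4, chr12:113306392-113306451: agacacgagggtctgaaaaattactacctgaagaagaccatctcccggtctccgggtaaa
Ighg2c, exon 4, chr12:113287392-113287451: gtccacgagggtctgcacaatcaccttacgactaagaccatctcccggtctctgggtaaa
Ighm and Igha carry the codon and the IgG genes do not. The IgG genes also resemble each other, which bears on how reads can be split between them. Ighg2b and Ighg2c were the closest pair, with 86.3% identity over 1002 aligned coding bases. Exact runs of 50 bases shared by both made up 2.66% of those in Ighg2b transcripts and 5.49% of those in Ighg2c transcripts, whereas Ighm, Ighd and Igha shared no such run with any other constant gene. Ighg3 shared 39 such runs with Ighg2b (1.58% of its own) and 10 with Ighg1 (0.406%), and Ighg1 shared 10 with Ighg2b (0.393%).

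The B cells summed to 3494505 (naive), 1040558 (2 hours) and 13255659 (3 days) UMIs, with medians of 6319, 813 and 5164 UMIs per cell. The 9 B cell markers, 3 of which defined the cells, were all detected in the B cells of every library, at 10181, 5268 and 5467 CPM in sum (UMIs of a gene divided by all UMIs of the cell group, times 1000000). In T cells, which by definition lack those 3 genes, the list summed to 20.1, 11.5 and 18.5 CPM. The 2-hour B cells were called on little: 377 of the 1013 stood exactly at 2 marker UMIs, against 21 naive and 107 3-day cells. Neutrophil markers (6 of 6 detected in each) summed to 242, 3453 and 4653 CPM in the B cells. In T cells they summed to 1280, 2195 and 4108 CPM. Monocyte and macrophage markers summed to 321, 128 and 2079 CPM in the B cells and to 347, 197 and 803 CPM in T cells. The part of these markers in the values below was not tested. Scrublet called 5, 88 and 109 of the B cells doublets. The libraries shared 8, 1 and 23 barcodes pairwise, none of them a B cell in both. Foxp1, a transcription factor gene with long introns, stood at 4975, 841 and 966 CPM in B cells and at 1913, 429 and 420 CPM in T cells. The naive counts came from Cell Ranger 7.1.0, which by default counts intronic reads, and the transplant counts from 6.0.0, which by default does not. The setting used is not stated, and its part in ratios against the naive library was not tested.

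Ighm, the first constant gene to be used and the one that encodes IgM, was the most abundant member in each library. It reached 2357 CPM in naive B cells (interval 2306 to 2408, 8235 UMIs), 1484 CPM at 2 hours (1411 to 1560, 1544 UMIs) and 2361 CPM at 3 days (2335 to 2387, 31295 UMIs). The 2-hour library was the low one, with a log2 ratio to naive of -0.67 (interval -0.75 to -0.59), and the 3-day library did not differ from naive beyond counting error (log2 ratio 0.00, interval -0.03 to 0.04). Ighm also stood lower at 2 hours in T cells, at 67.8 CPM against 111 in naive and 93.0 at 3 days. Among B cells 97.9%, 66.1% and 96.0% had an Ighm UMI. When 500 UMIs were drawn from each cell, these shares were 62.9% (interval 58.6% to 67.0%), 49.7% (46.6% to 52.9%) and 64.5% (62.4% to 66.5%), beside 5% in naive T cells, 2.53% at 2 hours and 5.21% at 3 days.

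Ighd, which encodes IgD, a receptor class of mature B cells that have not switched, followed another order. It stood at 638 CPM in naive B cells (interval 612 to 665, 2229 UMIs), at 598 CPM at 2 hours (552 to 647, 622 UMIs) and at 899 CPM at 3 days (882 to 915, 11911 UMIs). The naive and 2-hour libraries did not differ beyond counting error (log2 ratio -0.09, interval -0.22 to 0.04), and the 3-day library was above both, by 0.49 over naive (0.43 to 0.56) and 0.59 over 2 hours (0.47 to 0.71). At 500 UMIs per cell an Ighd UMI was found in 31.4%, 26.1% and 34.7% of B cells. Set against Igkc, the kappa light chain constant gene, in B cells that had not switched, there were 0.440 Ighm UMIs per Igkc UMI in the naive library (interval 0.429 to 0.452), 0.391 at 2 hours (0.369 to 0.415) and 0.507 at 3 days (0.5001 to 0.514). The corresponding Ighd values were 0.119 (0.114 to 0.124), 0.158 (0.145 to 0.172) and 0.193 (0.189 to 0.197). On this scale, which does not use the library total, Ighm kept its lowest value at 2 hours, and Ighd was lowest in the naive library.

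The T cell check separated these genes. Ighd was 147-fold higher in B than in T cells in the naive library (interval 97.1 to 236), 143-fold at 2 hours (72.3 to 333) and 94.3-fold at 3 days (75.6 to 119). Ighm was only 21.3-fold (19.5 to 23.2), 21.9-fold (18.3 to 26.4) and 25.4-fold higher (23.6 to 27.3). The ratio of the genes differed between cell types as well, with 25.6 Ighm UMIs per Ighd UMI in naive T cells (interval 16.7 to 41.2) and 3.69 in naive B cells (3.53 to 3.87). At 2 hours the ratios were 16.3 in T cells (8.01 to 38.4) and 2.48 in B cells (2.26 to 2.73), and at 3 days 9.76 (7.73 to 12.5) and 2.63 (2.57 to 2.68). Myeloid cells (at least 2 UMIs of Csf3r and Csf1r and no B or T cell marker UMI, Jchain-rich cells left out) had ratios of 33, 14.6 and 10.1. The source of the Ighm UMIs outside B cells was not tested.

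**Figure D1:**
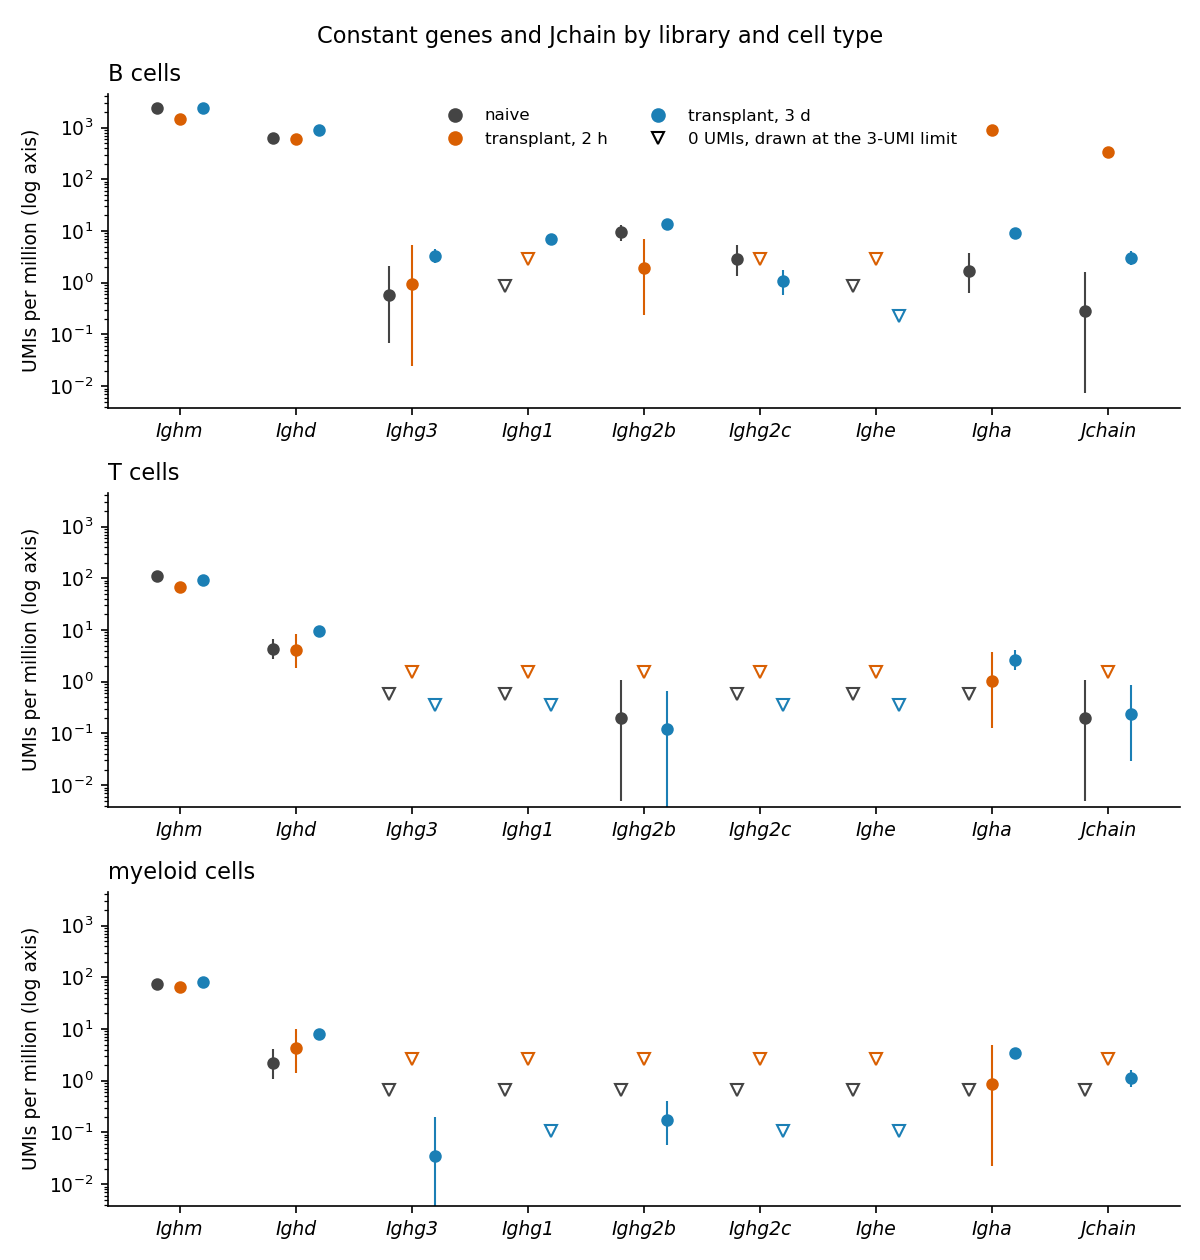
Levels of the 8 constant genes and Jchain in CPM of the cell group (log axis) in B, T and myeloid cells of the 3 libraries, with exact Poisson 95% intervals. Open triangles mark 0 UMIs and stand at the limit that 3 UMIs would give. Ighm and Ighd stand far above T cells in each library, and Igha and Jchain stand high only in the 2-hour B cells.

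The balance between the products of the shared Ighm and Ighd transcript was then read within single B cells, in the 478, 122 and 1930 cells with at least 5 UMIs of both genes together. Each UMI marks 1 molecule, and the ratio is compared between libraries, not read as the amount of IgM over IgD. The median share of Ighd was 23.5% in the naive library (quartiles 11.1% and 37.5%), 20% at 2 hours (0% and 42.6%) and 29.9% at 3 days (17.7% and 41.7%). Cells in which Ighd was the more abundant transcript were 7.74%, 14.8% and 11.1% of those measured. Cells with under 10% Ighd, called Ighd-low here, were 22.6% in the naive library (interval 18.9% to 26.6%), 34.4% at 2 hours (26.1% to 43.6%) and 11.5% at 3 days (10.1% to 12.96%). With fewer than 10 UMIs, a cell can be Ighd-low only by having no Ighd UMI. That was so of 40 of the 42 Ighd-low cells at 2 hours, against 27 of 108 naive and 70 of 221 3-day cells, so the 2-hour share rested mostly on counts of 0. Its pooled ratio was 2.48 Ighm UMIs per Ighd UMI, against 3.69 in naive and 2.63 in 3-day B cells. The share is a range and not a cell type: 95, 14 and 271 cells lay between 5% and 15%. With exactly 10 of these UMIs drawn from each cell, no Ighd was drawn in 67 of 402 naive cells (16.7%, interval 13.2% to 20.7%) and in 151 of 1716 3-day cells (8.80%, 7.501% to 10.2%). Only 8 cells of the 2-hour library were deep enough for this draw, and 3 of them had none. The ratio also moved with depth within each library. Cells at or above their library's median depth had 4.25, 2.62 and 2.92 Ighm UMIs per Ighd UMI, and cells below it 2.97, 2.26 and 2.26.

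**Figure D2:**
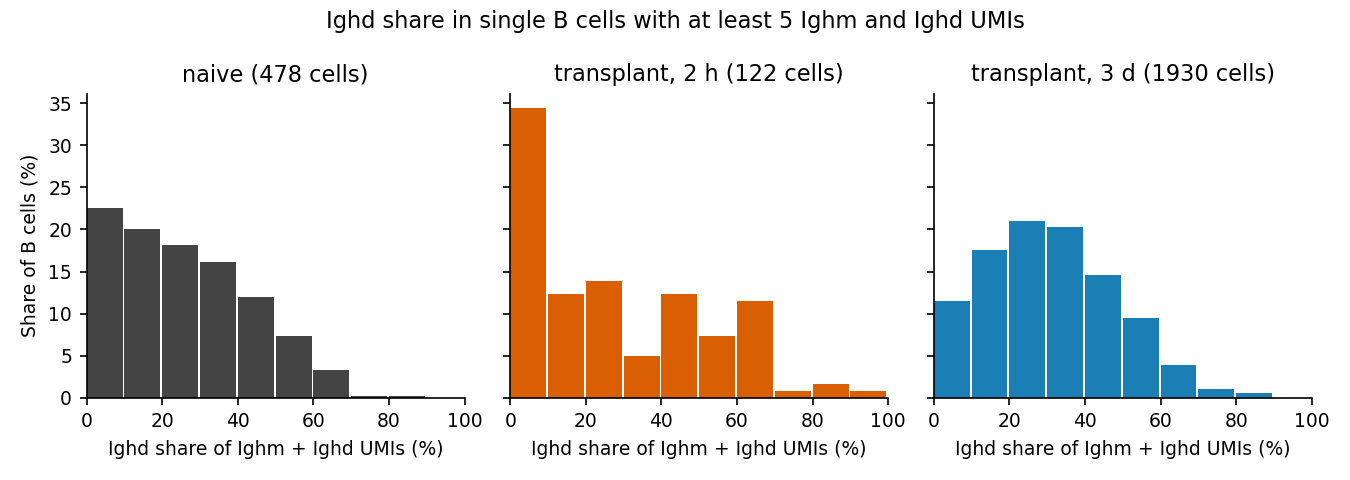
Share of Ighd among the Ighm and Ighd UMIs of single B cells (x axis, in bins of 10 percentage points) against the share of B cells in each bin (y axis, %), for cells with at least 5 such UMIs. The lowest bin is the fullest in the naive (22.6%) and 2-hour libraries (34.4%), whereas the 3-day cells peak between 20% and 30% Ighd.

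Ighd-low B cells differed from the other B cells of their own library in several listed genes. Bhlhe41, a transcription factor of B-1 cells, was higher in all 3 libraries, at 26.8 against 6.14 CPM in naive cells (log2 ratio 2.13, interval 1.10 to 3.19), 626 against 151 CPM at 2 hours (2.05, 1.19 to 2.95) and 46.0 against 9.80 CPM at 3 days (2.23, 1.78 to 2.68). Plac8 was higher by 0.74 (interval 0.57 to 0.91), 1.44 (0.70 to 2.19) and 0.96 (0.88 to 1.04) on the log2 scale. Ahnak, a large scaffold protein gene, was higher by 0.79, 1.31 and 0.92. The costimulatory ligand gene Cd80, a marker of memory B cells, was higher by 1.21 (0.37 to 2.03) in naive and 1.06 (0.64 to 1.47) in 3-day cells, whereas the 2-hour value rested on 6 UMIs in all. In the other direction, Fcer2a, which encodes CD23 on follicular B cells, had log2 ratios of -0.94 (-1.26 to -0.63), -1.41 (-3.41 to 0.15) and -0.79 in the 3 libraries, the 2-hour interval holding 0. Cd38, of the same naive follicular list, went the other way (0.72, 0.24 and 0.57), and Klf2 stood at 0.36, -0.10 and 0.04. Some genes of the memory and B-1 list did not go 1 way either. Spn stood at -0.22, -0.95 and 0.27, each interval holding 0, and S1pr1 at -0.29 (-0.58 to -0.01), 0.14 and -0.03. Cd5 stood at -0.17 (-3.47 to 2.23) in naive and 2.17 (0.90 to 3.39) in 3-day cells. The median depth of Ighd-low cells and the rest was alike within a library (6549 and 6321, 1212 and 1210, 5548 and 5061 UMIs).

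Zfp318, which is needed for transcription to run through to Ighd, was the listed splicing gene that went 1 way in every library. It stood at 63.8 CPM in Ighd-low and 108 CPM in other naive B cells (log2 ratio -0.77, interval -1.23 to -0.32). At 3 days it stood at 95.8 and 200 CPM (-1.06, -1.31 to -0.83), and at 2 hours at 104 and 176 CPM, where 27 UMIs in all gave an interval that held 0. Hnrnpf, Srsf3, Cstf2 and Ptbp1, which act in splicing or 3′ end formation, did not go 1 way in all libraries. Hnrnpll, of the same list, was higher in Ighd-low cells at 3 days (0.89, 0.07 to 1.65). It rested on 1 UMI in each cell set in naive and had none in Ighd-low cells at 2 hours. Over all 6004 genes with UMIs in both cell sets of every library, 20.3% were higher and 15.3% lower in Ighd-low cells in all 3 libraries. Beside this, 8 of the 14 memory and B-1 genes had UMIs in both cell sets of every library, and 5 of these were higher and none lower. Of the 8 reported genes of the naive follicular list 7 had such UMIs, and 2 were lower (Fcer2a and Cxcr5) and 1 higher (Cd38). Of the 14 plasma cell and secretion genes 8 had such UMIs, and 4 were higher (Mzb1, Pdia4, Hsp90b1 and Sec11c) and 1 lower (Ell2). Of the 6 splicing genes 5 had such UMIs, and 1 was lower (Zfp318) and 0 higher. That 1 of 5 stands beside the 15.3% of all genes. The libraries are not replicates of 1 condition, and cells within a library share its source.

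Light chain use differed as well. After these values had been seen, cells with more lambda (Iglc1, Iglc2 and Iglc3) than kappa (Igkc) UMIs were counted among cells with at least 5 light chain UMIs. They made up 21 of 108 Ighd-low naive cells (19.4%, interval 12.5% to 28.2%) against 22 of 353 others (6.23%, 3.95% to 9.28%). At 3 days they were 23 of 213 (10.8%, 6.97% to 15.8%) against 72 of 1692 (4.26%, 3.34% to 5.33%). At 2 hours they were 9 of 33 (27.3%) against 12 of 58 (20.7%), with intervals that overlapped widely (13.3% to 45.5% and 11.2% to 33.4%). Iglc1 was not carried by a single cell: its most abundant cell held 10.2% of the Iglc1 UMIs of Ighd-low naive cells, and without it the level moved from 1383 to 1253 CPM.

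**Figure D3:**
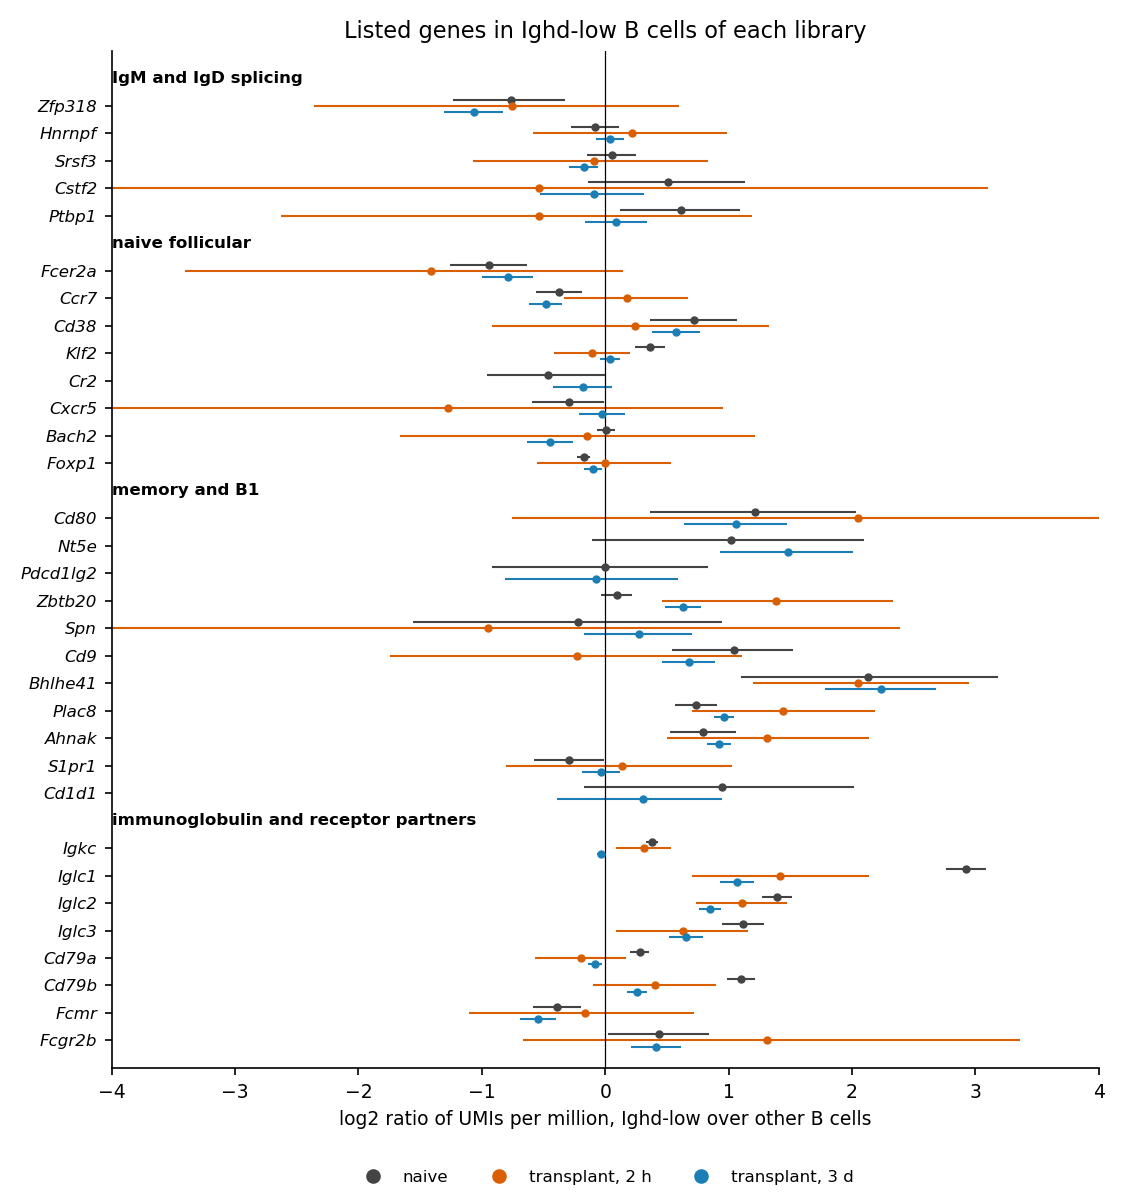
Log2 ratio of CPM in Ighd-low B cells over the other B cells of the same library (x axis) for reported listed genes with at least 20 UMIs in both the naive and the 3-day cells compared (rows, grouped by list). Bars are exact 95% counting intervals, cut at the edge of the axis where they run past it, and points are left out where a cell set had no UMI. Bhlhe41, Plac8, Ahnak and the lambda light chain genes lie to the right in all 3 libraries, and Fcer2a and Zfp318 to the left.

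Igha, the constant gene of IgA, the class of mucosal secretions, had its highest level at 2 hours, in very few cells. It had 6 UMIs in naive B cells (1.72 CPM, interval 0.630 to 3.74), each in a different cell. At 2 hours it had 931 UMIs (895 CPM, 838 to 954), of which 580 lay in 1 cell and 930 in 4 cells. At 3 days it had 120 UMIs (9.05 CPM, 7.51 to 10.8) in 88 cells, with at most 14 in a cell. The interval at 2 hours treats these UMIs as independent, which UMIs of 1 cell are not. Outside the 4 cells a single Igha UMI remained at 2 hours (0.980 CPM). At 3 days 85 of the Igha UMIs lay in 83 cells that were not called switched, at 6.48 CPM, and T and myeloid cells of that library had 2.65 CPM (22 UMIs) and 3.42 CPM (97 UMIs). No T or myeloid cell of the naive library had an Igha UMI. Igha over all 3-day B cells thus stood 3.41-fold above T cells (2.15 to 5.65), against 94.3-fold for Ighd.

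Jchain followed Igha at 2 hours. It had 1 UMI in naive B cells, 348 at 2 hours (334 CPM) and 40 at 3 days (3.02 CPM), and 347 of the 348 lay in the cells led by Igha. At 3 days 34 of the 40 lay in B cells not called switched, and the 1 switched B cell led by Igha had 0. Jchain-rich cells, with at least 1% of their UMIs and at least 3 UMIs on Jchain, numbered 0, 3 and 0 after filtering. The first of the 3 had 580 Igha, 181 Jchain and 625 Igkc UMIs among 3924. The second had 266 Igha and 157 Jchain UMIs among 6471, no Igkc and 1474 UMIs of the lambda gene Iglc3. The last had 289 Igha, 215 Jchain, 968 Igkc and 7 Ighg2b UMIs among 4143, but a single B cell marker UMI, which kept it out of the B cells. None of the 3 had an Ighm, Ighd or Ms4a1 UMI. Summed over the 3 cells, the 8 plasma cell markers were all detected, at 46361 CPM (674 UMIs). Most of this sum was Jchain, the gene that picked the cells, at 38038 CPM (553 UMIs).

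The cell filters decide what is seen of Jchain at 3 days. One barcode of the 3-day library was left out for its 38988 UMIs, and it held 6205 Igha, 2720 Jchain and 15480 Igkc UMIs with no Ighm or Ighd UMI, as well as 137 Mzb1, 77 Xbp1, 30 Derl3 and 4 Sdc1 UMIs. Of the 7255 Igha and 3024 Jchain UMIs in all deposited 3-day barcodes, 6945 and 2935 lay in barcodes the filters removed. The kept cells therefore held 2.94% of the Jchain UMIs at 3 days, compared with 99.8% at 2 hours and 80% of 5 UMIs in the naive library.

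The IgG genes led in other cells. Together they stood below Igha in the 2-hour B cells and above it in the naive and 3-day B cells. Ighg2b, which encodes IgG2b, was the most abundant of them in each library, with 33 UMIs in naive B cells (9.44 CPM, interval 6.50 to 13.3), 2 at 2 hours (1.92 CPM, 0.233 to 6.94) and 177 at 3 days (13.4 CPM, 11.5 to 15.5). The naive and 3-day levels did not differ beyond counting error (log2 ratio 0.50, -0.04 to 1.08). Ighg1, the constant gene of IgG1, had no UMI in the naive or the 2-hour B cells, where 3 UMIs would be 0.858 and 2.88 CPM, and 93 UMIs at 3 days (7.02 CPM) in 4 cells. Ighg3 had 2, 1 and 44 UMIs (0.572, 0.961 and 3.32 CPM), and Ighg2c, the C57BL/6 counterpart of IgG2a, had 10, 0 and 14 (2.86, 0 and 1.06 CPM). T cells held 1 IgG UMI in the naive library, none at 2 hours and 1 at 3 days. The IgG genes together thus stood at 12.9, 2.88 and 24.7 CPM in B cells and at 0.197, 0 and 0.121 CPM in T cells. Ighe, the constant gene of IgE, had no UMI in the B, T or myeloid cells of any library, which in B cells allows up to 0.858, 2.88 and 0.226 CPM.

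A B cell was called switched when Igha, Ighe and Ighg UMIs together were at least 2 and outnumbered those of Ighm and Ighd. Such cells were 3 of 528 in the naive library (0.568%, interval 0.117% to 1.65%), 4 of 1013 at 2 hours (0.395%, 0.108% to 1.01%) and 10 of 2114 at 3 days (0.473%, 0.227% to 0.868%). The shares did not differ between libraries beyond counting error. No T cell and no myeloid cell was called in any library, which in T cells allows shares of up to 0.6%, 0.223% and 0.326%. The classes of the called cells differed although the shares did not. Of the 3 naive cells, 2 held Ighg2b alone and 1 held Ighg2b and Ighg2c equally (9 UMIs each). All 4 cells at 2 hours were led by Igha, whereas at 3 days 6 were led by Ighg2b, 2 by Ighg1, 1 by Ighg3 and 1 by Igha. These are counts of 3 to 10 cells, and the cells of 1 class may descend from 1 clone. Of the 17 cells, 15 had no Ighm or Ighd UMI and the other 2, both at 3 days, had 1 each. None was called a doublet. They were deeper than the rest, with medians of 8981, 4758 and 14184 UMIs against 6315, 812 and 5161. Of the called cells 3, 4 and 8 lay at or above their library's median depth, and 0, 0 and 2 below it. The call needs at least 2 switched UMIs, so a shallow cell with a low level of an IgG gene can be missed. The classes were not compared at like depth.

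A second switched class was present in 1 naive cell, in none of the 2-hour cells and in 8 of the 10 cells at 3 days. The naive cell held 9 Ighg2b and 9 Ighg2c UMIs, the pair of genes most alike in sequence, and 1 cell at 3 days held 16 Ighg2b and 7 Ighg2c. Other pairs were further apart in sequence. One 3-day cell had 47 Ighg1 and 21 Ighg2b UMIs, another 51 Ighg2b, 6 Ighg3 and 5 Ighg1, and 1 more 24 Ighg2b and 14 Igha. The 14 Igha UMIs compare with at most 2 in any 3-day B cell not called switched. The cells at 3 days also held little Jchain, 6 UMIs in all over 4 cells.

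**Figure D4:**
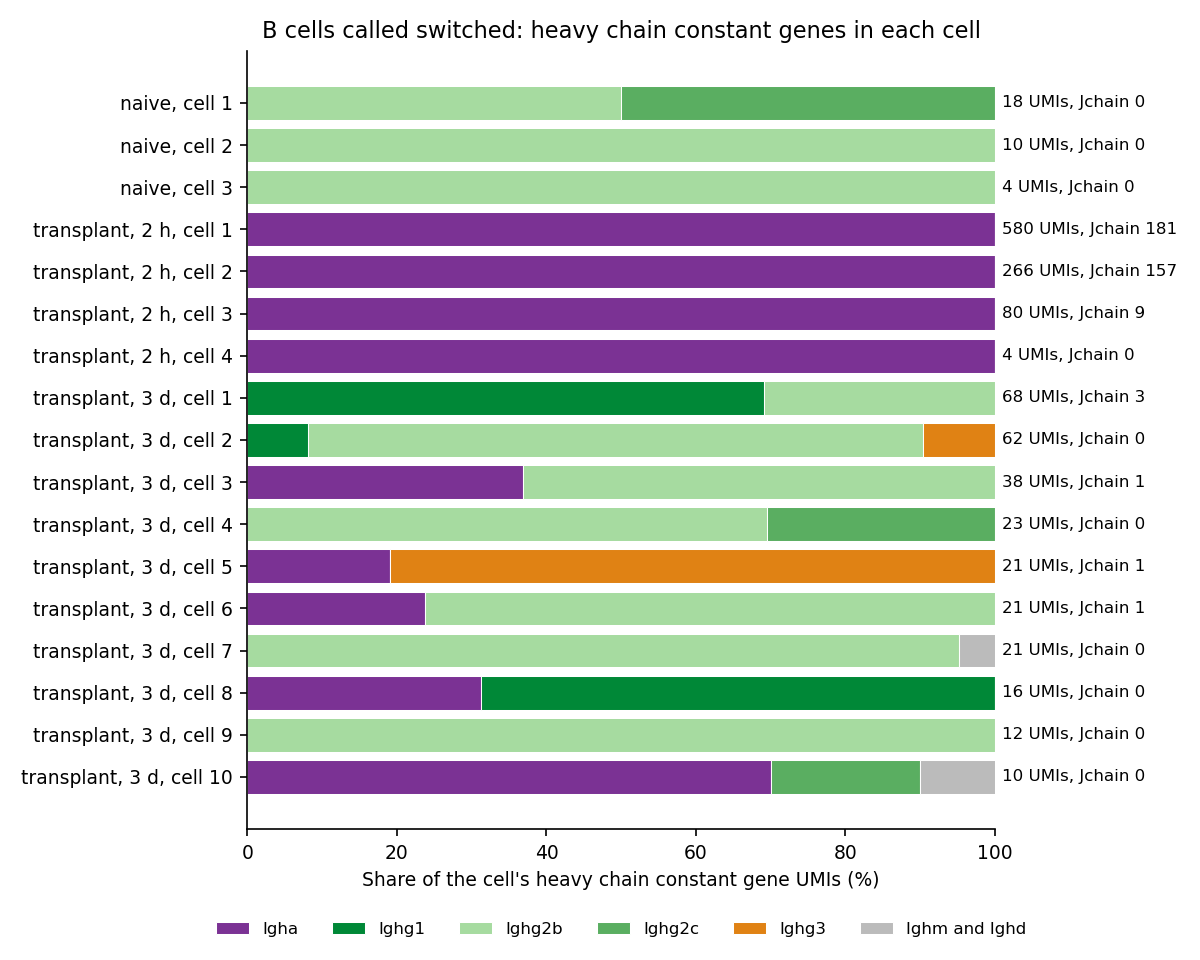
The 17 B cells called switched, 1 bar each, with the share of each constant gene among the cell's heavy chain constant gene UMIs (x axis, %). The number of these UMIs and of Jchain UMIs stands at the right. All 4 cells at 2 hours hold Igha alone (4 to 580 UMIs), and 8 of 10 cells at 3 days hold more than 1 switched class.

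Switched transcripts also occurred beside Ighm. Among B cells that were not called, 2 naive and 10 3-day cells had at least 2 switched UMIs. The one with the most, at 3 days, held 30 Ighg1 beside 34 Ighm and 1 Ighd UMIs and 6 Jchain UMIs. Others at 3 days had 9 Ighg2b beside 94 Ighm, 9 Ighg3 beside 36 Ighm and 4 Ighg2c beside 160 Ighm, the last with 11 Jchain UMIs and no Ighd. In the naive library 1 cell had 7 Ighg2b beside 28 Ighm and no Ighd. The cells named here were deep: those at 3 days had, in this order, 24108, 15384, 8904 and 20517 UMIs, and the naive cell had 10076. The medians of all B cells were 5164 UMIs at 3 days and 6319 in the naive library. Cells called switched held 62.7%, 99.6% and 64.7% of all switched UMIs in B cells.

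Counting every B cell with any switched UMI gave larger and less even shares, 2.84% in the naive library (interval 1.60% to 4.64%), 0.790% at 2 hours (0.342% to 1.55%) and 5.35% at 3 days (4.43% to 6.39%). T cells, with medians of 9857, 1259 and 8318 UMIs, had 0.2%, 0.149% and 2.50%. Drawing 500 UMIs per cell brought the B cells to 3 of 528 (0.568%, interval 0.117% to 1.65%), 4 of 983 (0.407%, 0.111% to 1.04%) and 15 of 2114 (0.710%, 0.398% to 1.17%), and T cells to 0%, 0.149% and 0.109%. At this depth the libraries did not differ beyond counting error. At 1000 UMIs per cell the naive share was 0.380% (2 of 527, interval 0.046% to 1.36%). The shares there were 1.80% at 2 hours (6 of 333, 0.664% to 3.88%) and 1.57% at 3 days (33 of 2102, 1.08% to 2.20%). The naive interval overlapped both others. At 2 hours 680 B cells were too shallow for this draw, so that share covers the deeper cells only. T cells had 0.2%, 0.194% and 0.326%. The excess at 3 days with all UMIs was mostly Igha: B cells with any Ighg UMI were 1.70%, 0.296% and 1.47%, against 0.2%, 0% and 0.109% of T cells.

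**Figure D5:**
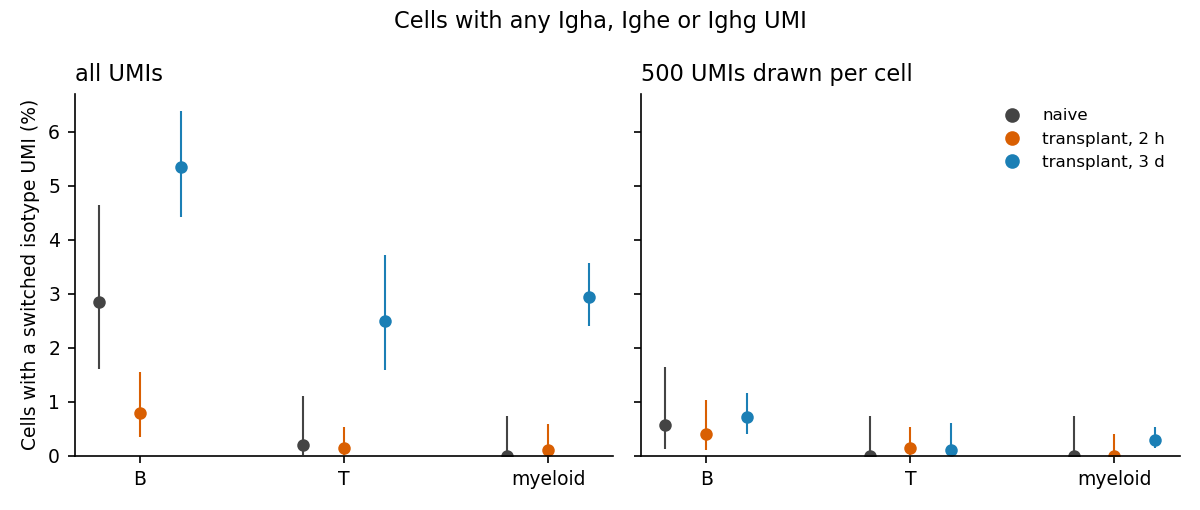
Share of cells with at least 1 UMI of Igha, Ighe or an Ighg gene (y axis, %) in B, T and myeloid cells of each library, with all UMIs and with 500 UMIs drawn per cell. Bars are exact Clopper-Pearson 95% intervals. The 3-day values fall from 5.35% to 0.710% in B cells and from 2.50% to 0.109% in T cells.

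Only the 3-day library had enough switched B cells (10) to set other genes beside them. Ranked by the log2 ratio of CPM plus 50 over the other 2104 B cells, the leading 10 genes were Gimap4, Sspn, Bhlhe41, Lmo2, Basp1, Capg, Clic4, Apoe, Gm15987 and Tcf4. Gimap4, a GTPase of lymphocytes, stood at 694 against 108 CPM, with UMIs in 10 of 10 switched cells and in 36.4% of the others. Sspn, which encodes sarcospan, stood at 189 against 3.89 CPM and was found in 7 of 10 cells against 1.47%. Bhlhe41, which was also higher in Ighd-low cells, stood at 174 against 13.6 CPM. Lmo2, a transcriptional adaptor of germinal center B cells, stood at 309 against 54.7 CPM. Apoe rested on 1 cell, which held 60% of its UMIs. The genes were picked for these values, and the switched cells were deeper than the others.

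Of all 10536 genes with at least 50 UMIs over the B cells, 4.54% were at least 2-fold higher and 16.6% at least 2-fold lower at 2 hours than in the naive library, on the scale of CPM plus 10. The 9 tested genes of the class switch and germinal center list included 2 higher, the death receptor gene Fas (4.01 to 24.99 CPM) and Basp1 (7.44 to 48.1 CPM), and 1 lower, Trp53bp1, a repair factor needed for switching (43.8 to 10.6 CPM). In T cells the direction was the same: Fas moved from 33.8 to 228 CPM, Basp1 from 16.9 to 51.1 CPM and Trp53bp1 from 23.8 to 10.4 CPM. On the scale of CPM plus 10, Igha and Jchain were higher at 2 hours among the 6 members tested, and none was lower. At 3 days none passed 2-fold in either direction against naive, where 3.75% of all genes were higher and 10.5% lower. The added 10 CPM leaves members near or below that level little room to reach 2-fold. Without it, Ighg2b stood at 0.204-fold of naive at 2 hours (interval 0.024 to 0.796). That ratio rests on 2 UMIs at 2 hours and on 33 naive UMIs in 6 cells, 10 of them in 1 cell. The interval treats UMIs of 1 cell as independent, which they are not. At 3 days Igha stood 5.27-fold above naive (2.35 to 14.7) and Jchain 10.5-fold (1.79 to 427), on 6 and 1 naive UMIs. Igha also had 22 UMIs in T cells and 97 in myeloid cells at 3 days, and Jchain 32 in myeloid cells. Naive T cells had no Igha UMI, and naive myeloid cells had none of either gene. In B cells Ighg1 had 93 UMIs at 3 days and none in naive. Ighg3 stood 5.80-fold above naive at 3 days (1.51 to 49.4), on 44 UMIs against 2. Ighg2c went the other way, to 0.369-fold (0.152 to 0.929), on 14 UMIs against 10, of which 9 lay in 1 cell. These intervals also treat UMIs of 1 cell as independent. The ratios of Ighm, Ighd and Ighg2b stayed below 2-fold at 3 days. Fas (19.2 CPM) and Basp1 (46.5 CPM) were at least 2-fold above naive at 3 days on the scale of CPM plus 10.

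Of the 14 tested genes of the signals that direct switching, 3 were lower at 2 hours than in the naive library, beside 16.6% of all genes: Il5ra (60.95 to 5.77 CPM), the receptor of a cytokine that sustains B-1 and IgA-producing cells, and the TGF-β receptor genes Tgfbr1 (85.3 to 15.4 CPM) and Tgfbr2 (414 to 106 CPM), through which switching to IgA is induced. Tgfbr1 (33.7 CPM) and Tgfbr2 (161 CPM) were also lower at 3 days, beside 10.5% of all genes. These shares are near those of all genes and are no result about the list. In T cells Tgfbr1 went from 51.5 to 14.6 and 20.02 CPM and Tgfbr2 from 513 to 159 and 214 CPM, the same direction as in B cells. None of the 14 was 2-fold higher than naive in either transplant library.

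The counts of the next lists stand beside 4.54% of all genes higher and 16.6% lower at 2 hours. At 3 days the shares of all genes were 3.75% and 10.5%. Of the 12 tested plasma cell and secretion genes, none was higher and Ell2, an elongation factor that favors the secreted heavy chain form, was lower at 2 hours (221 to 98.0 CPM). In T cells Ell2 went from 85.3 to 30.2 CPM. At 3 days Xbp1, the transcription factor of the secretory program, was 2-fold higher (36.9 to 86.2 CPM), and in T cells it stood at 57.4 CPM in naive and 80.1 CPM at 3 days. None of the 6 splicing genes passed 2-fold, and Zfp318 had 101.3, 95.1 and 167 CPM. Of the 9 naive follicular genes, Klf2 (799 to 2772 CPM) and Ccr7 (445 to 928 CPM) were higher and Foxp1, Bach2 and Cxcr5 lower at 2 hours. Foxp1 and Bach2 were lower at 3 days. T cells moved in the same direction for each of these genes. Their log2 ratios at 2 hours over naive were 1.41 for Klf2 and 0.82 for Ccr7. For Foxp1, Bach2 and Cxcr5 they were -2.16, -4.19 and -0.999. At 3 days the T cell ratios were -2.19 for Foxp1 and -4.55 for Bach2. Of the 12 tested memory and B-1 genes, Bhlhe41 was higher at 2 hours (10.9 to 128 CPM), Ahnak (183 to 520 CPM) and Spn (16.9 to 43.8 CPM) were higher at 3 days, and Zbtb20 was lower at both. In T cells Zbtb20 stood at 651, 80.3 and 143 CPM in the 3 libraries, and Spn went from 145 CPM in naive to 219 CPM at 3 days. Ahnak was higher in T cells too at 3 days (log2 ratio 0.98 over naive). Among the 8 tested partners of the heavy chain, Iglc3 was higher at 2 hours and Iglc1 lower at 3 days (438 to 175 CPM). For Iglc3, 1474 UMIs lay in 1 of the Igha cells.

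Over the 10 combinations of library and cell group (B, T and myeloid cells in each library, and the Jchain-rich cells at 2 hours), the genes whose log2 CPM followed Ighd most closely were Scd1, Tnfrsf13c, Lynx1, H2-DMb2 and Fcrla, with Pearson r from 0.996 to 0.998. For Ighm they were Mtmr4, Ttpal, Sbk1, Cenpu and Fdxacb1 (0.971 to 0.985). For Igha and Jchain the leading gene was 2700081O15Rik (0.994 and 0.997), and these values rest on the single point of Jchain-rich cells. The points share libraries and depth, so the coefficients describe these sums only.

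Both transplant files also held antibody tag counts for IgM, IgD, IgE and IgG Fc, a readout of surface protein in principle. In the 1013 B cells at 2 hours none of the 4 had a count, although all antibody features together had 55637. In the 2114 B cells at 3 days IgM had 5 counts, IgE 1 and IgD and IgG Fc none, of 192258 in all, and T cells had 1 count each of IgM, IgD and IgG Fc. Surface IgM and IgD could therefore not be compared with Ighm and Ighd transcripts.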

How the data were processed

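The deposited values were unnormalized UMI counts of genes per cell, which the authors made with Cell Ranger (per the file headers, version 7.1.0 in naive and 6.0.0 in both transplants). The submitters' processing notes name mm10 and Seurat 4. No source used here states the setting for intronic reads. The kits named in the methods (3′) and in the labels (5′ besides 3′) differ, which leaves the chemistry unsettled. The methods' cell filters (over 200 and under 6000 genes, under 10% mitochondrial UMIs, under 25000 UMIs) were applied in Python 3.11.15 with pandas 2.3.3.

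CPM were computed from UMIs summed over the cells of a group, with that group's total as the divisor. Exact intervals (scipy 1.17.1) were Poisson for sums, Clopper-Pearson for shares and conditional on the total for ratios. A count of 0 allows up to 3 counts. No p-value was computed, since each condition had 1 library. Scrublet ran per library in scanpy 1.11.5, and called doublets were removed only in an alternative. The ratio code was checked on simulated counts. Coding sequences were aligned with Biopython 1.88. No columns of other samples were present.

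The members and gene lists were chosen with earlier results of these data known. Named genes were the members, listed genes past 2-fold between libraries or set beside a member, the 10 genes leading in switched B cells (at least 20 UMIs, CPM plus 50) and the 5 genes most like Ighm, Ighd, Igha and Jchain. Alternatives were no cell filter, at least 3 B marker UMIs, no doublets, no Jchain-rich cells, CPM outside immunoglobulin genes, a mean over cells, other thinning depths, other switched, T cell and Jchain thresholds, and for the lists 10 UMIs and CPM plus 1. Leaving out switched cells, at least 20 UMIs for Ighd-low cells, the light chain counts, the ratios to Igkc and the split by depth were chosen after seeing the data. Some listed genes are not reported here.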

Additional observations from a re-analysis of the deposited data

Results flagged for a closer look

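Signal outside the B cell comparisons came from barcodes and cell groups that were not part of them. The barcode of the 3-day library that exceeded the limit on UMIs held 2720 Jchain UMIs, whereas the naive library had no such barcode, kept or removed. Igha was found in myeloid cells at 0.870 CPM at 2 hours (1 UMI) and at 3.42 CPM at 3 days (97 UMIs), and naive myeloid cells had none. Jchain was found in myeloid cells at 1.13 CPM at 3 days (32 UMIs, at most 1 per cell), with none in naive or 2-hour myeloid cells.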

How the results depend on the processing

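The log2 ratio of Ighd at 2 hours over naive, which did not differ from 0 beyond counting error, was 0.0059 with doublets left out and negative under the other alternatives. With at least 3 B marker UMIs, the log2 ratio of Ighm was -0.57 at 2 hours and 0.080 at 3 days against naive, and that of Ighd at 3 days was 0.58. The mean over cells gave 0.12 for Ighm and 0.62 for Ighd at 3 days, and leaving out doublets gave 0.046 for Ighm at 3 days. After thinning to 500 UMIs, 0% of naive B cells were called switched (interval up to 0.696%). The shares were 0.305% at 2 hours (0.063% to 0.889%) and 0.142% at 3 days (0.029% to 0.414%), so the intervals overlapped. At 1000 UMIs per cell, 1.80% of 2-hour and 1.57% of 3-day B cells had a switched UMI, beside 0.380% of naive B cells. At 2 hours 333 of the 1013 cells were that deep. Without cell filters, 1 Jchain-rich cell appeared at 3 days. Among cells with at least 20 Ighm and Ighd UMIs, 36.7% of naive, 14.2% of 3-day and 100% of 2-hour cells were Ighd-low, the last being 1 cell. With CPM plus 1, 9 listed genes were at least 2-fold higher at 3 days than in the naive library. Of the recomputed values of the main results, 84 stayed within counting error or, for counts, within 1.5 times the main count.

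Igha at 2 hours rested on few cells: it fell from 895 to 82.5 CPM without Jchain-rich cells and to 0.980 CPM without switched cells. The last value is 1 UMI, beside 6 UMIs (1.73 CPM) in the naive library computed the same way, too few to order the libraries. At 3 days Igha stood at 483 CPM without cell filters. Depth limits the 2-hour library most, since its B cells had a median of 813 UMIs. No paired analysis was possible because each condition had 1 library.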
